A study of Saccharomyces cerevisiae with 25 samples.

Results

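The genes described here encode the proteins of the small (40S) subunit of the cytosolic ribosome in the budding yeast Saccharomyces cerevisiae. They are the rows of the deposited table whose name is RPS followed by a number and, for duplicated genes, the letter A or B, which gave 56 members among 6648 named rows. They make 32 proteins: 8 are encoded by 1 gene each and 24 by a pair of near-identical genes. RNA was sequenced in 25 samples of a BY4741 strain, a laboratory haploid, that carries pho84pr-YFP (the PHO84 promoter driving a yellow fluorescent protein) and the phm3 damp allele. PHM3 and VTC4 name the same gene, which encodes the polymerase subunit of the vacuolar complex that makes polyphosphate, and a damp allele usually lowers the amount of its transcript. The labels give this genotype for all samples. The sample at 0 min came from cells in medium with high phosphate, and the other 24 were taken every 15 min for 6 hours after washing and transfer to medium without phosphate.

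Proteins of the 40S subunit assemble with 18S ribosomal RNA in the nucleolus, nucleus and cytoplasm, and the finished subunit binds messenger RNA and reads its codons. In growing yeast the ribosomal protein genes are among the most highly transcribed, and they are known to be controlled together by Rap1, Fhl1, Ifh1, Sfp1 and Hmo1 under the TOR and protein kinase A pathways. Their transcripts are known to drop when nutrients run out or when cells are stressed.

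Values are log2 RPM (reads per 1000000 reads of a library). A value is a share of the library, so fewer transcripts per cell and more RNA of other genes cannot be told apart, and neither can fewer cells of a kind and less RNA per cell. The 24 samples without phosphate were compared as 6 hours of 4 consecutive time points, hour 1 being 15 to 60 min and hour 6 being 315 to 360 min. Nothing in the labels says that samples came from separate cultures, so p-values reflect only how neighbouring samples scatter, and the 0 min sample has n = 1. Depth ranged from 0.147 to 4.27 M reads, and 3 libraries (270, 330 and 345 min) were under 0.5 M. A set of 5 libraries (75, 120, 255, 345 and 360 min) stood apart by ADA2, the gene of a subunit of the SAGA coactivator, which read 7.83 to 8.92 log2 RPM there and 10.46 to 12.02 in the other 20. This set was chosen after the values had been seen, several 40S genes moved with it, and whether it differs in strain or preparation was not tested. VTC4 itself read 6.40 log2 RPM at 0 min, 5.87 to 8.06 in 23 of the libraries without phosphate and 10.36 at 345 min. Differences of hour 6 against hour 1 are given with and without the set for the genes and classes whose order turns with it.

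The copies of a pair share much of their sequence, and this decides how firmly each can be read. Shown here are the first 60 coding bases, 5′ to 3′ from the R64 reference, of the most alike pair (RPS6) and of the pair with the most separable copies (RPS27), with capitals where the copies differ.
RPS6A: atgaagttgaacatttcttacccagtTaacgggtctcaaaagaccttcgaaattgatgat
RPS6B: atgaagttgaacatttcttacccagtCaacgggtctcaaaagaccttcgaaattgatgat
RPS27A: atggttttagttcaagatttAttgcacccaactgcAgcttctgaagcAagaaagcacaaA
RPS27B: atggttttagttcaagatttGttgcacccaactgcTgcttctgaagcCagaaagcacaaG
RPS6A and RPS6B, which encode a protein phosphorylated downstream of TOR, differ at 6 of 711 coding bases. Their longest identical run is 311 bases, and 0% of their values in the 25 samples were whole numbers of reads. RPS27A and RPS27B, which encode a zinc-binding protein, differ at 39 of 249 bases with no identical run over 23 bases, and 92.0% of the values of each were whole. Fractional reads are read here as values that the counting divided between rows, an inference, since how it was done is not given in the sources used here. All 48 paired members had under 95% whole values, so a difference between copies is uncertain and is given only as the counting left it. Of the 8 single-copy members, RPS2, RPS3, RPS12, RPS13 and RPS15 had 100% whole values, RPS20 had 83.3%, and RPS31, whose protein is made as a fusion to ubiquitin, had 44%.

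The promoters were read for the letters that Rap1, the main activator of this gene class, is known to prefer. The letters CACCC, any 2 bases and ACA, on either strand, occurred within 300 bases before the coding start in 2 of 56 members (3.57%) and in 1.15% of all 6020 promoters read. Within 500 bases, a window added after seeing the first, it occurred in 11 of 56 members (19.6%) and in 2.21% of 6019 promoters. The large-subunit genes had 22.2% in that window. All 12 matches are shown with 15 bases on either side, along the gene's strand, because Rap1 letters were the searched letters whose share in the members lay furthest above that of all promoters, although 45 of the 56 members hold none. Capitals mark the match, coordinates are R64, and distances run from the match's first base to the coding start.
RPS10A (chrXV:866743-866782, plus strand, 340 bases before): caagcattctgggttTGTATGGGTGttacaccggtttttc
RPS10B (chrXIII:732209-732248, plus strand, 190 bases before): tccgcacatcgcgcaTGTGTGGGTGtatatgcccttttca
RPS11B (chrII:332511-332550, plus strand, 305 bases before): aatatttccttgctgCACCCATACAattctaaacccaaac
RPS16A (chrXIII:551515-551554, plus strand, 398 bases before): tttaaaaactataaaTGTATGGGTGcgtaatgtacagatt
RPS16A (chrXIII:551605-551644, plus strand, 308 bases before): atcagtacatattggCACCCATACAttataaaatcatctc
RPS16B (chrIV:308128-308167, minus strand, 363 bases before): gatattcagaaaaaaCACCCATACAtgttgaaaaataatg
RPS17B (chrIV:1355826-1355865, minus strand, 297 bases before): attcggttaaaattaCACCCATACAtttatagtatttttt
RPS21B (chrX:157592-157631, minus strand, 343 bases before): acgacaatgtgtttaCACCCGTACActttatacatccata
RPS23B (chrXVI:794641-794680, plus strand, 309 bases before): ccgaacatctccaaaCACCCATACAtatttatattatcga
RPS24A (chrV:305971-306010, plus strand, 337 bases before): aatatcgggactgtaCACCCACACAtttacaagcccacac
RPS4B (chrVIII:505975-506014, minus strand, 469 bases before): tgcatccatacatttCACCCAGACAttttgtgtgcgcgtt
RPS7A (chrXV:505305-505344, plus strand, 474 bases before): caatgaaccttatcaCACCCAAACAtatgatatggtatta
Other letters were searched on both strands of the 300-base windows. Abf1 letters (TCA, any 6 bases and ACG) were in 16.1% of members and 14.9% of all, the stress element AGGGG in 17.9% and 22.2%, PAC (GATGAG) in 14.3% and 19.1%, RRPE (AAAATTTT) in 5.36% and 9.39%, and the Pho4 letters CACGTG in 0 of 56 and 3.55%. Within 500 bases Abf1 letters were in 21.4% of members and 22.6% of all promoters, AGGGG in 23.2% and 34.0%, PAC in 21.4% and 28.2%, RRPE in 7.14% and 12.4%, and the Pho4 letters in 1 member (1.79%) and 6.21%. A match is a description of letters and not a bound site.

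Together the 56 members took 13.6% of the reads at 0 min (Wilson 95% interval 13.57 to 13.64%, counting error only). Through hour 1 their summed share was 11.97, 11.5, 10.2 and 9.11%, and through hour 2 it was 10.8, 11.6, 12.4 and 12.98%. Hour 3 held most of the descent, with 12.4% at 135 min, 9.47% at 150, 5.89% at 165 and 3.85% at 180 min. Hour 4 gave 3.21, 2.82, 2.46 and 2.51%, hour 5 gave 1.15, 3.52, 2.68 and 2.69%, and hour 6 gave 3.11, 3.58, 1.52 and 1.37%. The course therefore had a shallow dip to 60 min, a return by 105 to 135 min and a deep descent between 135 and 225 min. The 3 samples under 2% are the libraries of 255, 345 and 360 min, all in the set with low ADA2. The 81 large-subunit rows (RPL and RPP) followed a like course from 20.7% at 0 min to 2.50% at 360 min. The ratio of the small-subunit to the large-subunit share was 0.657 at 0 min, 0.631 at 330 min and 0.549 at 360 min. The 4 lowest ratios, 0.549, 0.576, 0.581 and 0.601, were those of 360, 75, 255 and 345 min, all low-ADA2 libraries. The remaining library of that set, 120 min, had a ratio of 0.651, above that of 330 min.

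**Figure D1:**
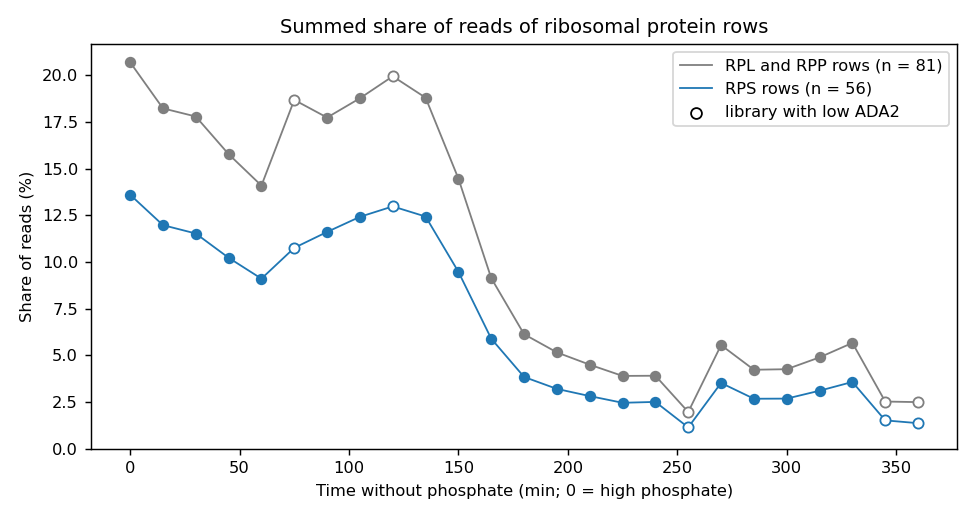
Summed share of reads (%) of the 56 RPS rows (blue) and of the 81 RPL and RPP rows (gray) against time without phosphate, 1 point per library; open points are the 5 libraries with low ADA2. The RPS share is 13.6% at 0 min, 9.11% at 60 min, 12.4% at 135 min and 2.46% at 225 min.

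In the first hour, which asks what happened soon after phosphate was withdrawn, no member passed the test, with values that were nearly all below that of high phosphate. limma called 0 of the 55 tested members as higher and 0 as lower, where 0.458% of all 4363 tested genes were called as higher and 0.0229% as lower. At an unadjusted p under 0.05 the count was also 0, beside 429 of the 4363 genes, and limma with voom weights called 0. The model holds 1 spread per gene for all hours, so the wide scatter of the members in later hours enters this test. The SD of their median level over the samples was 0.21 in hour 1, 0.78 in hour 3 and 0.83 in hour 5. A count of 0, here and in the later steps, therefore does not show that the members held still. The median log2 difference of the members was -0.38 and that of all tested genes 0.11. All of these contrasts rest on the single library at 0 min. Set beside it, 54 of 55 members read lower at 60 min, with a median of -0.59 and a range from -0.92 to 0.73. The exception was RPS9A, a copy of the gene for a body protein that contacts the messenger RNA entry side. RPS9A read 8.63 log2 RPM at 0 min and 8.83, 8.96, 9.01 and 9.36 through hour 1. Its copy RPS9B read 11.69 at 0 min and 11.47, 11.53, 11.30 and 11.18 through hour 1. All 4 hour 1 values of RPS9A lie above that of 0 min and all 4 of RPS9B below it. The differences were 0.41 ± 0.51 (SE, limma adjusted p = 0.884) for RPS9A and -0.32 ± 0.63 (limma adjusted p = 0.927) for RPS9B, so neither passed. The share of RPS9A in the pair was 10.7% at 0 min and 21.98% at 60 min. Whole values were 20.8% for RPS9A and 24% for RPS9B, so the division of shared reads may enter this share.

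Hour 2 held a return of values toward those of high phosphate, again with no member past the threshold. limma called 0 members as higher and 0 as lower against hour 1, where 0.481% of all tested genes were higher and 1.7% lower. A single member, RPS30A, had an unadjusted p under 0.05, beside 799 of the 4363 genes, and voom weights called 0. The median difference was 0.20, beside -0.05 for all genes. Of the 20 libraries outside the low-ADA2 set, the highest value between 90 and 135 min was that of 105 min in 27 of 55 members, of 135 min in 18 and of 90 min in 10. From 60 to 105 min the median member gained 0.47 log2 units, and at 135 min the median stood at -0.15 against 0 min, with 46 of 55 members still below it.

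**Figure D2:**
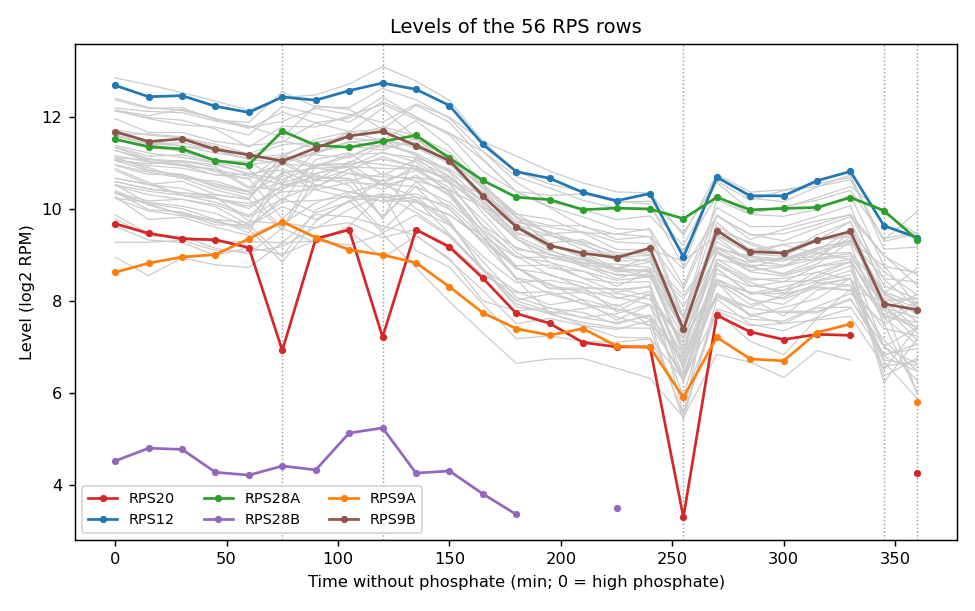
Levels (log2 RPM) of the 56 RPS rows against time without phosphate; gray lines are rows, 6 rows are coloured, dotted verticals mark the 5 libraries with low ADA2, and gaps are values under 10 reads. RPS12 goes from 12.69 at 0 min to 10.18 at 225 min, RPS20 drops at the dotted lines, and RPS28B lies lowest at 4.52 at 0 min.

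Hours 3 and 4 held the descent. limma called 13 of 55 members as lower and 0 as higher in hour 3 against hour 2, where 7.77% of all tested genes were lower and 16.4% higher. Of the 13, 7 fell by at least 1 log2 unit, as did 3.21% of all genes. Against hour 3, hour 4 had 45 of 55 members lower and 0 higher, where 2.66% of all genes were lower. The median member difference was -0.73 in the earlier of these steps and -1.45 in the later, beside all-gene medians of 0.17 and 0.20. RPS14B, a copy of the gene for a platform protein, fell by 1.65 ± 0.31 into hour 3 (SE, limma adjusted p = 0.00116). RPS9A fell by 1.24 ± 0.32 (limma adjusted p = 0.00838) and RPS2, which lines the messenger RNA entry channel and is a single-copy gene, fell by 0.89 ± 0.32 (limma adjusted p = 0.046). The 10 members that did not pass into hour 4 were RPS9A, RPS11A, RPS17B, RPS19A, RPS20, RPS21B, RPS24B, RPS26B, RPS27A and RPS27B, with differences from -0.84 to -1.59.

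The hour boundary at 180 min cuts through the descent, and both counts depend on single libraries. Without the library of 135 min, 32 members passed into hour 3 and 3 into hour 4. Without 180 min the counts were 1 and 53, and without 150 min 14 and 3. Without 165 min, 2 members passed into hour 3. Leaving out 75, 105 or 120 min gave 7, 8 or 3 into hour 3. Leaving out 210, 225 or 240 min gave 24, 7 or 6 into hour 4. The share of all genes called was not kept for these single-library refits. A change particular to the members therefore cannot be told from one across all genes. Without the 5 low-ADA2 libraries the counts were 9 and 55, with 6.65% and 3.85% of all genes lower.

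Sample by sample the descent was closely timed across members. From 135 to 180 min every one of the 55 members read lower, by -1.79 at the median and between -2.33 and -0.91. A further decrease from 180 to 225 min was seen in 55 of 55, with a median of -0.60. Among the 20 libraries outside the low-ADA2 set, the largest decrease between neighbouring samples was the step from 150 to 165 min in 33 members and that from 165 to 180 min in 18. The remaining 4 members had it from 135 to 150 min (2), from 180 to 195 min (RPS8A) and from 270 to 285 min (RPS30A). The level halfway between 135 min and the median of 285 to 330 min, on the log2 scale, was first passed at 165 min in 36 members and at 180 min in 19. These times are descriptions of 1 course at a resolution of 15 min.

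After 240 min no further change passed. limma called 0 members in either direction in hour 5 against hour 4 and 0 in hour 6 against hour 5, where 0% of all genes were called in either direction. No member reached an unadjusted p under 0.05 in either step, beside 257 and 392 of the 4363 genes, and voom weights called 0. The medians were -0.28 and -0.08, and without the 5 low-ADA2 libraries they were 0.14 and 0.19, again with 0 called. From 225 to 330 min all 55 members read higher, by 0.55 at the median and between 0.02 and 0.90. Outside the low-ADA2 set these samples hold the lowest and the highest summed share from 195 min on, so the step runs between extremes. This step ends at 330 min, 1 of the 3 libraries under 0.5 M reads, and its relation to depth was not tested.

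**Figure D3:**
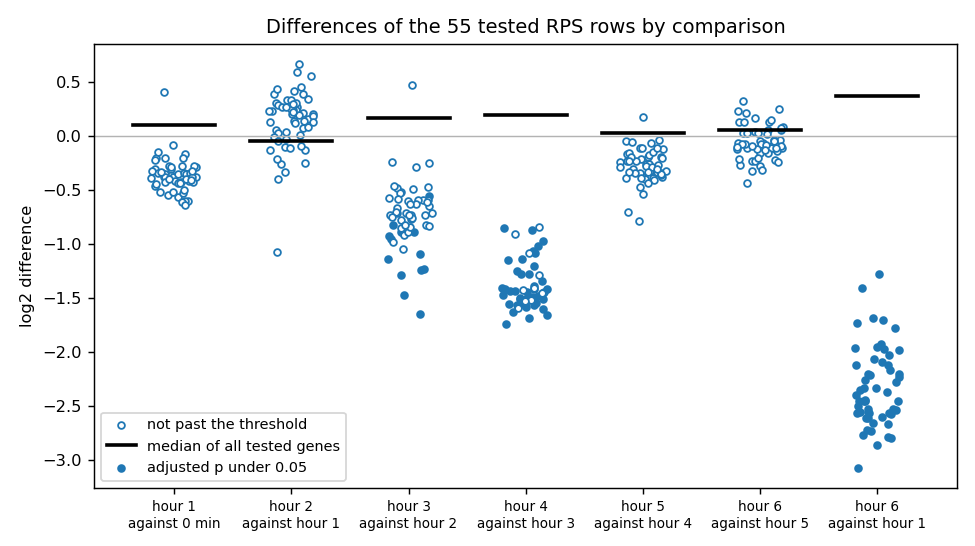
log2 differences of the 55 tested RPS rows in the 7 comparisons; filled points passed an adjusted p of 0.05, open points did not, and black bars are the medians of all 4363 tested genes. The rows lie around -0.38 in hour 1 against 0 min, around 0.20 in hour 2 against hour 1, and all 55 are filled and between -3.07 and -1.28 in hour 6 against hour 1.

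From hour 1 to hour 6 all 55 tested members fell, and none rose. The median was -2.39 (5.25-fold), with 7.11% of all genes called as lower and 39% as higher. The median of all tested genes was 0.37 in this comparison, so the members' median relative to it was -2.76. Of the 81 large-subunit rows 80 fell, with a median of -2.29. Without the 5 low-ADA2 libraries, which leaves 2 samples in hour 6, all 55 still passed, with a median of -1.73 and a range from -2.07 to -1.03. There 6.33% of all genes were lower. Along the 24 samples without phosphate, a spline in time varied in 55 of 55 members at an adjusted p under 0.05, as it did in 66.9% of all tested genes.

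Among the single-copy members RPS20 and RPS12, both proteins of the head of the subunit, had the largest and the smallest fall. RPS12 (chromosome XV, 1028194 to 1028625, minus strand, no intron) read 12.69 log2 RPM at 0 min and 12.45, 12.47, 12.24 and 12.11 in hour 1. In hour 2 it read 12.44, 12.37, 12.58 and 12.75, and in hour 3 12.61, 12.26, 11.41 and 10.82. In hour 4 it read 10.67, 10.36, 10.18 and 10.34. Hours 1 and 4 do not overlap, and hour 3 bridges them. In hour 5 it read 8.96, 10.69, 10.29 and 10.29, and in hour 6 10.62, 10.82, 9.64 and 9.38. Its fall from hour 1 (12.32 ± 0.17 SD, n = 4) to hour 6 (10.12 ± 0.71 SD, n = 4) was 2.20 ± 0.35 on the log2 scale (SE, limma adjusted p = 2.46e-05). Its 2 lowest hour 6 values and its lowest hour 5 value belong to libraries with low ADA2.

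RPS20 (chromosome VIII, 75412 to 75777, plus strand, no intron) encodes a head protein that is ubiquitinated in ribosome quality control. It read 9.68 log2 RPM at 0 min and 9.47, 9.35, 9.33 and 9.16 in hour 1. In hour 2 it read 6.92, 9.36, 9.55 and 7.22, and in hour 3 9.55, 9.17, 8.50 and 7.73. In hour 4 it read 7.51, 7.10, 7.004 and 7.0. The 2 low values of hour 2 are those of 75 and 120 min, both libraries with low ADA2, and lie below all other values up to 180 min. In hour 5 it read 3.30, 7.69, 7.33 and 7.16, and in hour 6 7.28 and 7.25, no value at 345 min (fewer than 10 reads) and 4.26 at 360 min. The value at 255 min stands on 11 reads. Its fall from hour 1 to hour 6 was 3.07 ± 0.82 on the log2 scale (SE, n = 4 and 3, limma adjusted p = 0.00405). With voom weights it was -3.04 at a limma adjusted p of 0.321, and without the library of 360 min -2.07 at 0.0545. Without all 5 low-ADA2 libraries it was -2.07 ± 0.32 (limma adjusted p = 1.53e-04).

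The other single-copy members named here lay between these. RPS13, a body protein that binds the central domain of the ribosomal RNA, fell by 2.61 ± 0.42 log2 units. RPS15, a head protein near the decoding side, fell by 2.54 ± 0.37. RPS31 fell by 2.55 ± 0.40, RPS3, which lines the messenger RNA entry, by 2.53 ± 0.40, and RPS2 by 2.20 ± 0.32. Their limma adjusted p-values ran from 8.77e-06 for RPS2 to 2.69e-05 for RPS13. The neighbours in this order differ by less than the larger of their standard errors. Without the 5 low-ADA2 libraries RPS20 and RPS12, at -2.07 and -1.59, were still the ends of the single-copy members.

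RPS22A, a copy of a gene for a body protein, had the largest fall among the paired members with all libraries, but not without the 5 low-ADA2 libraries, where RPS16B led the pairs at -2.02 and RPS22A stood at -1.90. RPS22A (chromosome X, 74910 to 75302, minus strand) read 10.97 log2 RPM at 0 min and 10.80, 10.68, 10.42 and 10.24 in hour 1. In hour 2 it read 11.07, 10.63, 10.86 and 11.14, in hour 3 10.92, 10.36, 9.49 and 8.74, and in hour 4 8.27, 8.24, 8.06 and 8.21. In hour 5 it read 6.77, 8.70, 8.17 and 8.31, and in hour 6 8.51, 8.77, 6.23 and 7.19. No value from hour 4 on reaches the lowest of hour 1. RPS22B (chromosome XII, 856442 to 857317, plus strand) holds an intron of 483 bases in which the small nucleolar RNA SNR44 lies on the same strand, so their reads may be counted together. It read 9.28 at 0 min and 9.28, 9.32, 9.10 and 9.08 in hour 1. In hour 2 it read 9.18, 9.61, 9.71 and 9.38, in hour 3 9.56, 9.22, 8.57 and 8.18, and in hour 4 8.20, 7.94, 7.65 and 7.47. In hour 5 it read 6.91, 8.12, 7.70 and 7.51, and in hour 6 7.59, 7.67, 6.58 and 6.69. RPS22A lay above RPS22B in all samples but those of 255 and 345 min. From hour 1 to hour 6 RPS22A fell by 2.86 ± 0.45 (SE, limma adjusted p = 2.15e-05) and RPS22B by 2.06 ± 0.28 (limma adjusted p = 4.76e-06). The difference between copies was not tested. The RPS22A share of the pair was 76.3% at 0 min, 51.1% at 195 min and 68.2% at 330 min, with 24% whole values in each copy.

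RPS27 is the only pair in which at least 90% of the values of both copies were whole. RPS27B read 11.06 log2 RPM at 0 min, 10.63 ± 0.20 in hour 1 and 7.87 ± 1.33 in hour 6 (SD, n = 4). RPS27A read 9.62 at 0 min, 9.19 ± 0.15 in hour 1 and 7.26 ± 0.79 in hour 6 (SD, n = 4). RPS27B fell by 2.76 ± 0.60 (SE, limma adjusted p = 6.31e-04) and RPS27A by 1.93 ± 0.34 (limma adjusted p = 7.91e-05). The RPS27A share of the pair lay between 25.3 and 30.1% in hour 1 and between 33.4 and 37.8% in hour 4, which do not overlap. It was 68.5% at 255 min and 54.8% at 360 min, both low-ADA2 libraries, and 33.2 and 36.3% at 315 and 330 min. Without the 5 libraries the falls were 1.83 ± 0.37 for RPS27B and 1.30 ± 0.31 for RPS27A. No test was made of the share.

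**Figure D4:**
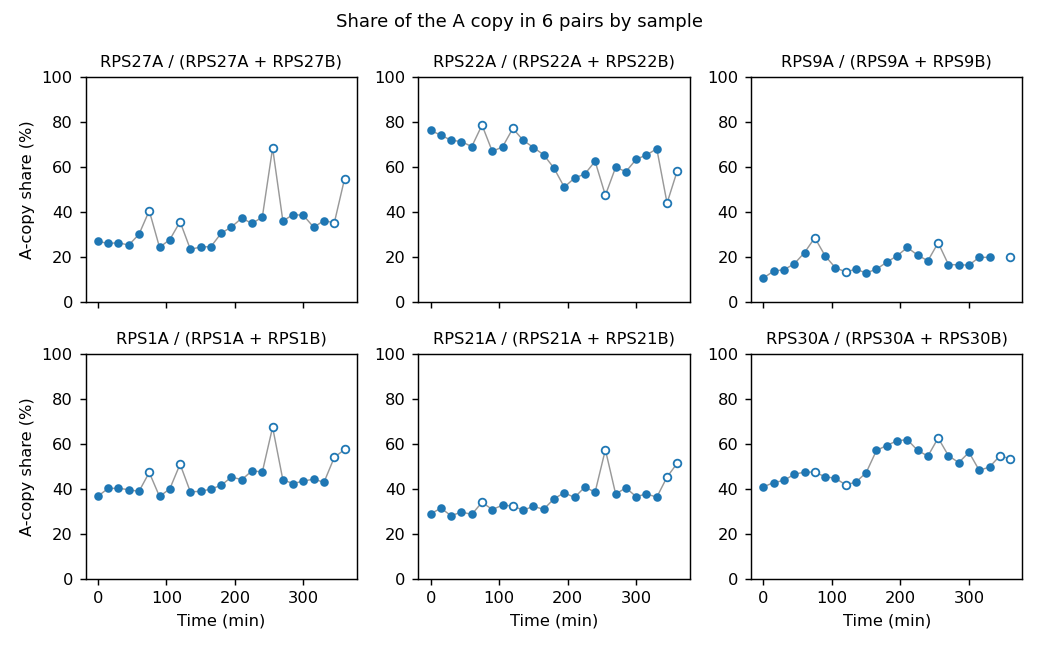
Share (%) of the A copy in the summed RPM of 6 pairs against time, 1 point per library; open points are the 5 libraries with low ADA2. The RPS27A share is 26.1% at 15 min and 37.8% at 240 min, and the RPS9A share 10.7% at 0 min and 21.98% at 60 min. Except in RPS27, most values of these copies were not whole numbers of reads.

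Of the 5 smallest falls from hour 1 to hour 6, 4 were those of genes with under 400 coding bases. RPS28A, a copy of the gene for a head protein at the exit of the messenger RNA, fell by 1.28 ± 0.22 log2 units (2.42-fold, limma adjusted p = 5.23e-05). It read 11.17 ± 0.19 log2 RPM in hour 1 and 9.90 ± 0.40 in hour 6 (SD, n = 4). At 255 min it read 9.79, which was -0.34 against the mean of the neighbouring samples. RPS30A, of the body, fell by 1.40 ± 0.19, RPS25B, of the head, by 1.68 ± 0.30, RPS23A, whose protein sits at the decoding centre, by 1.70 ± 0.29, and RPS21A by 1.73 ± 0.30. At the other end the 5 largest falls also held genes with under 400 coding bases, RPS20 (366), RPS22A (393) and RPS27B (249). The others there were RPS1B, of the platform (768), and RPS19A, of the head (435). Each of these fell by 2.79, with SE of 0.48 and 0.50. Without the 5 low-ADA2 libraries RPS1B stood at -1.88 and RPS19A at -1.71, the latter no larger than the median fall of -1.73, while RPS28A and RPS30A had the smallest falls there too, at -1.03 and -1.16. The median fall was 2.02 among 18 members with under 400 coding bases and 2.45 among 37 longer ones. Across the 55 members Pearson's r between coding length and the difference was -0.39, and -0.47 without the 5 libraries, a description of members that share every library. The medians of 8 single-copy and 47 paired members were -2.55 and -2.35, and without the 5 libraries -1.80 and -1.72, in the same order. The classes that follow were level or turned their order without the 5 libraries. By place in the subunit the medians were -2.45 for 21 head members and -2.36 for 34 of the body and platform, and without the 5 libraries -1.72 and -1.77. By introns they were -2.42 for 36 members with and -2.33 for 19 without, and without the 5 libraries both were -1.73. The 11 members with Rap1 letters within 500 bases had a median of -2.44, beside -2.36 for the other 44, and without the 5 libraries these were -1.73 and -1.74.

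RPS28B, the second copy of RPS28, was the lowest member and the only one not tested. Its protein is known to bind the RPS28B transcript and to speed its decay. Its values stood on 14 of 25 samples. It read 4.52 log2 RPM at 0 min, 4.799, 4.77, 4.27 and 4.21 in hour 1, and 4.41, 4.33, 5.13 and 5.24 in hour 2. In hour 3 it read 4.26, 4.30, 3.80 and 3.36. After 180 min a single value was listed, 3.51 at 225 min, and the other samples held fewer than 10 reads. Its highest values, at 105 and 120 min, are above that of 0 min. RPS28A made 98.7 to 99.4% of the pair where both had values. Whole values were 64% for RPS28A and 35.7% for RPS28B, so the division of shared reads may enter this share and the level of RPS28B.

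In the low-ADA2 libraries the members did not move alike. Against the mean of the neighbouring samples at 75 min, RPS20 stood at -2.34 log2 units, RPS27B stood at -1.11 and RPS17B at 0.82. At 120 min RPS20 stood at -2.34 again, RPS27B at -1.24 and RPS24B at 0.95. The medians over members were 0.10 and 0.05. The member deviations at 75 and 120 min had a Pearson's r of 0.82 and a Spearman's rho of 0.67 across 56 members, and those of 30 and 150 min, libraries outside the set, -0.21 and -0.14, all as descriptions. At 255 min all 55 members were below their neighbours and 46 of them by more than 1 unit, with a median of -1.59. RPS20 stood at -4.05, RPS27B at -3.13, RPS30A at -0.39 and RPS28A at -0.34 there. The part of the libraries' preparation in this was not tested.

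Per length, with copies summed, the proteins spanned a 10.0-fold range of transcript level at 0 min. RPS20 was lowest at 2245 RPM per kb of coding length, followed by RPS7 at 4186 RPM per kb. RPS23 was highest at 22505, followed by RPS21 at 21346 and RPS30 at 19821 RPM per kb. In hour 6 the span was 12.1-fold, from a median of 417 RPM per kb for RPS20 to 5034 for RPS28. The ratio of the upper to the lower quartile over the 32 proteins was 2.01 at 0 min and 2.29 in hour 6. With copies summed, all 32 proteins fell from hour 1 to hour 6 by limma.

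**Figure D5:**
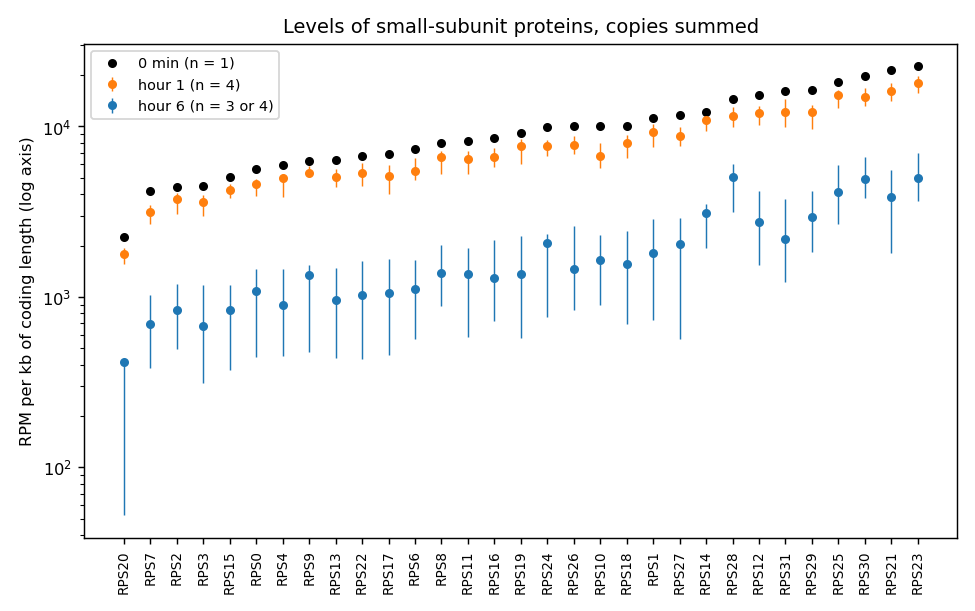
Level of 31 of the 32 proteins as RPM per kb of coding length (log axis, copies summed) at 0 min (black, 1 sample), hour 1 (orange) and hour 6 (blue), ordered by 0 min; points are medians and bars run from the lowest to the highest sample. RPS20 is lowest at 2245 and RPS23 highest at 22505 at 0 min, and every hour 6 bar lies below its hour 1 bar.

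Genes that work with the 40S subunit or in ribosome assembly, and are not named RPS, were read from 3 lists. Of 6 tested 40S-associated genes 4 fell from hour 1 to hour 6, beside 7.11% of all genes. ASC1, a scaffold bound to the head and a constituent of the mature subunit, fell by 2.53 ± 0.38 (SE, limma adjusted p = 1.17e-05) and STM1, a clamp of idle ribosomes, by 2.02 ± 0.31 (limma adjusted p = 1.44e-05). MBF1, which guards the reading frame, fell by 1.00 ± 0.20 and the initiation factor TIF11 by 1.03 ± 0.25. The assembly list was drawn up for late 40S steps, but not all of its genes, PXR1 among them, are particular to these. Of its 18 tested genes 3 rose and 0 fell, beside 39% of all genes that rose. These were NOB1, the nuclease that finishes 18S ribosomal RNA, by 0.72 ± 0.20, FAP7 by 0.61 ± 0.17 and PXR1 by 0.78 ± 0.28. Of 13 tested regulators 6 rose and 1 fell, beside the same 39%. TAP42 rose by 0.67 ± 0.17, the kinase gene TOR2 by 0.85 ± 0.23, RAP1 by 0.59 ± 0.17 and the repressor gene STB3 by 0.78 ± 0.23. HMO1 fell by 0.45 ± 0.15 (limma adjusted p = 0.0173). Once each sample was centred on its median, 0 regulators and 0 assembly genes rose, 1 of each fell, and all 6 of the associated genes fell. With that centring 720 of all 4363 tested genes rose and 769 fell. Without the 5 low-ADA2 libraries 2 regulators rose and 0 fell, and 0 assembly genes passed in either direction. There 4 of the associated genes still fell, beside 29.8% of all genes that rose and 6.33% that fell. Of the 18 assembly genes 13 fell into hour 3 and 0 into hour 4, where 7.77% and 2.66% of all genes fell, and the difference from the members, whose own counts depend on single libraries, was not tested.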

How the data were processed

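Total RNA of 25 samples was sequenced on an Illumina instrument, per the labels' protocols, and aligned with Bowtie to build R64, per the submitters' processing notes. Counter, annotation, the use of strand and the treatment of multiply mapping reads are not given in the sources used here. Values on the log2 scale come in 1 deposited table. On the linear scale every sample adds up to 1000000, so the values were used as log2 RPM, although the design text speaks of values relative to the first time point. The table lists values from 10 reads upwards, and reads were recovered from the step between low values (within 0.02 of a whole number in 94.9 to 97.5% of values under 200 reads per library). Of 6701 rows, 53 with no name or a shared name were left out.

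A group-means model (0 min and 6 hours of 4 samples) was fitted with limma 3.58.1 in R 4.3.3 to the 4363 genes listed at 0 min and in 3 or more of the 4 samples of each hour. Calls are at a Benjamini-Hochberg adjusted p under 0.05 over these genes. The single 0 min sample was assumed to vary like the others. Change along the course was tested with a natural spline of 4 degrees of freedom. The fit was tested on simulated data. Errors are SE for differences and SD for means. Coordinates and sequences come from the RefSeq annotation of R64. Depth limits low values, and intervals cover counting error only. Named in full were the single-copy members (1 is not reported here), the 5 largest and 5 smallest differences of hour 6 against hour 1, pairs with at least 90% whole values, and up to 4 genes of each further list by p. RPS9A, RPS9B, RPS14B, RPS28B and the members listed by time or deviation were named after their values had been seen. Members and lists were chosen with earlier results of these data known. Alternatives were scaling, filter, weights, libraries, correlation between samples, time windows and summed copies.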

Additional observations from a re-analysis of the deposited data

Results flagged for a closer look

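RPS20 in hour 5 held a sample far from the others: it read 3.30 log2 RPM at 255 min, where the other 3 samples of the hour read 7.16 to 7.69. The gap was 0.880 of the whole range. Of 40 groups of 4 samples examined, 1 was singled out in this way, and chance does so for about 1 in 20 groups. The library of 255 min is in the low-ADA2 set. Its depth, 1.12 M reads, equals the median of the 25 libraries.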

How the results depend on the processing

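The counts of called members in hour 1 against 0 min, hour 2 against hour 1, hour 5 against hour 4 and hour 6 against hour 5 were 0 under every alternative run. The step into hour 3 (13 lower) gave 3 with quantile normalization, 7 with an added log2 difference of at least 1, 5 of 32 with copies summed and 1 to 32 when each library was left out. The step into hour 4 (45 lower) gave 14 with quantile normalization and 3 to 53 when each library was left out. Shares of all genes called were not kept for quantile normalization, summed copies or left-out libraries, so these counts stand without them. Hour 6 against hour 1 gave 55 of 55 except with voom weights (52), without 360 min (54), and where fewer rows were tested: 50 of 50 valued in all samples, and 32 of 32 with copies summed. The spline gave 32 of 32 with copies summed. A lag-1 correlation between consecutive samples was estimated at -0.06. The summed share at 0 min was 14.4% when only genes valued in all samples were counted. Of 269 values of single genes under alternatives, 267 kept their direction and side of the threshold, the exceptions being those of RPS20 given above (-3.04 and -2.07), and 0 reversed. The cause of these differences was not tested. The low depth of 345 min (0.147 M reads) leaves low members unlisted. No paired analysis was possible because each time point is 1 sample and no groups share replicates beyond a number given in time order.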
